A study of Mus musculus with 6 samples.

Results

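Blk and the Src family kinases were followed through mouse blood stem cells with and without BCR-ABL, the fusion kinase of chronic myeloid leukaemia. The genes were those probe sets whose only symbol in the platform annotation was Blk, Src, Lyn, Fgr, Fyn, Lck or Yes1. Of these 7 genes, 5 had such a probe set, each with 1 probe set carrying values on every array: Blk, Src, Fyn, Yes1 and Fgr. They are 5 of 19934 genes with values. Lyn and Lck were not analysed here.

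The arrays numbered 6, in 3 groups of 2. Alox5-/- LSC were leukaemia stem cells from Alox5-/- donor marrow transduced with a BCR-ABL/GFP retrovirus. LSC were the same kind of cell from wild-type (WT) C57BL/6 (B6) donors. HSC were Lin-c-Kit+Sca-1+ cells without BCR-ABL, from WT donors and labelled as vector samples, the virus for these carrying GFP alone. All donors had received 5-fluorouracil, all recipients were B6 mice, and every sample is labelled C57BL/6 (B6) and 8 weeks of age. Marrow was taken 14 days after transplantation, and LSC were sorted as GFP+Lin-c-Kit+Sca-1+ cells. LSC against HSC asked which genes BCR-ABL alters, and Alox5-/- LSC against LSC what the loss of Alox5 alters in BCR-ABL cells. An Alox5-/- group carrying the vector was not analysed here, so Alox5 loss was seen only together with BCR-ABL. The titles call the arrays biological replicates, and neither the number of animals behind an array nor the viral promoter is given in the sources used here. Because the number of animals is unknown, p-values refer to the spread between these samples and not between animals. Limma also draws the spread of each probe set toward that of the other probe sets.

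Src family kinases are tyrosine kinases anchored to the inner face of the plasma membrane, where they pass on signals from immune receptors, integrins and growth factor receptors. The kinase Csk holds them inactive by phosphorylating a tyrosine in their C-terminal tail, and phosphatases such as CD45, the product of Ptprc, remove that phosphate. In blood cells Blk is known for B lymphocytes, Fgr for myeloid cells and Fyn for T lymphocytes, while Src and Yes1 are found in many tissues. The same laboratory has described Blk as a brake on BCR-ABL stem cells in mice, with Pax5 and Ebf1 upstream and the cell cycle inhibitor p27, the product of Cdkn1b, downstream.

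Every value is a deposited score whose unit, log base and direction are not stated. Scores ran from 0 to 62.1, and array medians from 14.5 to 16.4. Several genes that blood cells are known to use heavily lay low. Beta-actin (Actb) lay between percentiles 4.30 and 12.9 of its array, elongation factor Eef2 between 6.03 and 8.91, and the gate gene Kit between 18.6 and 40.8. The median of 1026 olfactory receptor genes lay between percentiles 49.8 and 59.2. The 14 probe sets of 6 housekeeping genes spanned percentiles 0.12 to 97.8, both ends being probe sets of Tpt1. Their median lay between percentiles 30.8 and 59.7 of an array. Of 12 housekeeping genes listed, only these 6 had probe sets. A higher score is therefore not read as higher expression, no fold change is given, and the scores do not check the sorted cell type. Over probe sets, Pearson correlations were 0.794 to 0.824 within groups and 0.782 to 0.839 between groups, so the groups did not stand apart as a whole.

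Alox5, which encodes arachidonate 5-lipoxygenase and is lost in Alox5-/- donors, had scores of 14.4 and 13.5 in Alox5-/- LSC, 13.2 and 14.2 in LSC, and 12.6 and 19.9 in HSC. The Alox5-/- LSC and LSC scores overlapped, with a difference of 0.26 ± 2.39 (SE). Each SE given here pools the spread of all 3 groups, and for Alox5 the HSC arrays varied most. The SD was 0.61 in Alox5-/- LSC, 0.71 in LSC and 5.15 in HSC (n = 2 each). An array probe set can lie outside the disrupted part of a gene, so these scores check neither the genotype nor the labels.

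None of the 5 kinases passed the test in any comparison. Yes1 had the lowest p when Alox5-/- LSC were set against LSC, and it was lower in Alox5-/- LSC than in either other group without overlap. Group means of Blk differed by at most 0.79 and those of Src by at most 0.23. Blk, Src, Fyn and Fgr each had their highest score on HSC replicate 2, which was the highest array for 30.9% of all probe sets. After each array was centred on its median, this held for Fyn and Fgr only. The 2 HSC arrays of these 4 kinases lay 2.59 to 4.91 apart. For Fgr the 2 LSC arrays lay nearly as far apart, at 2.54.

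**Figure D1:**
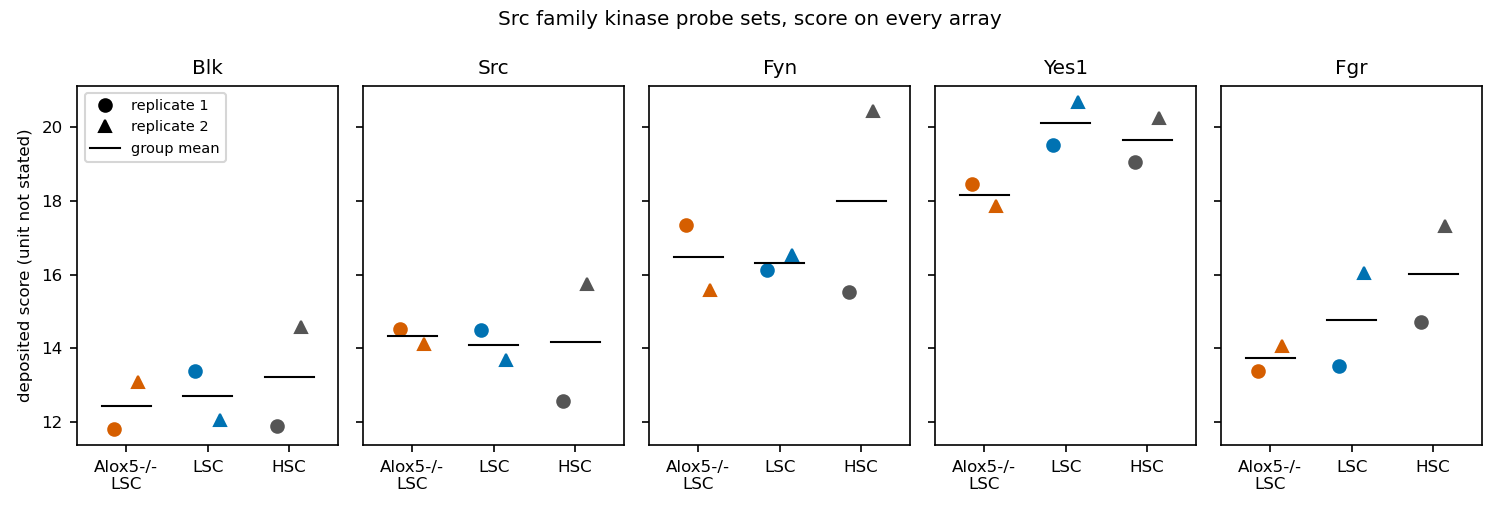
Deposited score (vertical axis, unit not stated) of the 5 Src family kinase probe sets on the 6 arrays, by group (horizontal axis); circles are replicate 1, triangles replicate 2 and lines the mean of the 2 arrays. Yes1 in Alox5-/- LSC, at 18.5 and 17.9, lies below all its LSC and HSC scores, and the Fyn score of 20.4 on HSC replicate 2 stands above the other 5 Fyn scores.

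Blk scored 11.8 and 13.1 in Alox5-/- LSC, 13.4 and 12.1 in LSC, and 11.9 and 14.6 in HSC. The 3 groups overlapped, and every LSC and Alox5-/- LSC score except the 11.8 lay between the 2 HSC scores. Blk averaged 12.45 ± 0.89 in Alox5-/- LSC, 12.7 ± 0.94 in LSC and 13.2 ± 1.91 in HSC (SD, n = 2 each), and no neighbours in this order differed beyond their spread. The difference LSC minus HSC was -0.52 ± 1.41 (SE), with a 95% interval from -3.98 to 2.94. Set against LSC, Alox5-/- LSC differed by -0.27, and by 0.14 after each array was centred on its median and by 0.28 after quantile normalization. Set against HSC, they differed by -0.79, and by 0.094 and 0.24 under the same scalings. Direction also depended on single arrays, since leaving out HSC replicate 2 turned LSC minus HSC to 0.83, and leaving out LSC replicate 2 turned it to 0.14. A shift of Blk of a few score units either way is thus within these intervals.

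Src, the founding member of the family, scored 14.5 and 14.1 in Alox5-/- LSC, 14.5 and 13.7 in LSC, and 12.6 and 15.8 in HSC. Both HSC arrays lay outside the range of the 4 BCR-ABL arrays, 1 on each side, and the group means were 14.3 ± 0.29, 14.1 ± 0.58 and 14.2 ± 2.25 (SD, n = 2 each) in the same order. In LSC minus HSC the difference was -0.058 ± 1.42 (SE), and 0.42 after centring and 0.46 after quantile normalization. In Alox5-/- LSC minus LSC it was 0.23 (95% interval -3.25 to 3.71), and -0.18 without LSC replicate 2. That interval also carries the spread of the HSC arrays, which lay farthest apart.

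Fyn, which signals from the T cell receptor and from adhesion receptors, scored 17.3 and 15.6 in Alox5-/- LSC, 16.1 and 16.5 in LSC, and 15.5 and 20.4 in HSC. HSC held both the highest and the lowest score, so neither leukaemic group was separate from HSC. For LSC minus HSC the difference was -1.67 ± 1.84 (SE), with an interval from -6.17 to 2.84, and 0.79 without HSC replicate 2. For Alox5-/- LSC minus HSC it was -1.52, and 0.94 without HSC replicate 2. Without HSC replicate 1 these were -4.12 (limma unadjusted p = 0.0436, adjusted p = 0.648) and -3.97 (unadjusted p = 0.0489, adjusted p = 0.539), so the side of the unadjusted threshold rested on 1 array. For Alox5-/- LSC minus LSC it was 0.15, and -0.73 without Alox5-/- LSC replicate 1 and -0.062 without LSC replicate 1.

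Yes1, a broadly expressed kinase close to Src, scored 18.5 and 17.9 in Alox5-/- LSC, 19.5 and 20.7 in LSC, and 19.0 and 20.3 in HSC. Both Alox5-/- LSC arrays were below all 4 others, and LSC and HSC overlapped. Alox5-/- LSC were also lowest after centring, but LSC then lay above HSC without overlap, at 4.06 and 5.16 against 3.49 and 3.88 above the array median. Over all probe sets, 11.7% had Alox5-/- LSC below both other groups in this way, and 5.67% after centring, so the pattern of Yes1 was not rare. The difference Alox5-/- LSC minus LSC was -1.94 ± 1.17 (SE; 95% interval -4.80 to 0.93; limma unadjusted p = 0.149, adjusted p = 1.00), and stayed between -2.51 and -1.36 when each array was left out in turn. Against HSC the difference was -1.48 ± 1.17 (SE; limma unadjusted p = 0.251), with values from -2.09 to -0.88 when each array was left out. For LSC minus HSC it was 0.45, turning to -0.12 with LSC replicate 2 left out and to -0.15 with HSC replicate 1 left out. Yes1 had the tightest replicates of the 5 kinases, with a residual SD at percentile 14.1 of all probe sets, against 68.6 for Fyn.

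Fgr, a kinase of neutrophils and monocytes, scored 13.4 and 14.1 in Alox5-/- LSC, 13.5 and 16.1 in LSC, and 14.7 and 17.3 in HSC. Group means were 13.7 ± 0.47 in Alox5-/- LSC, 14.8 ± 1.80 in LSC and 16.01 ± 1.83 in HSC (SD, n = 2 each), with Alox5-/- LSC and LSC overlapping, and LSC and HSC overlapping. Alox5-/- LSC lay below HSC without overlap as deposited but overlapped it after centring. The difference Alox5-/- LSC minus HSC was -2.28 ± 1.49 (SE; 95% interval -5.94 to 1.38; limma unadjusted p = 0.178, adjusted p = 0.819), the lowest p of the 5 kinases in that comparison, and it was -0.99 with HSC replicate 2 left out and -3.57 with HSC replicate 1 left out. For Alox5-/- LSC minus LSC it was -1.05, and 0.22 without LSC replicate 2. The difference of LSC minus HSC was -1.23, turning to 0.064 with HSC replicate 2 left out and to 0.040 with LSC replicate 1 left out. Summed scores of the 7 granulocyte and monocyte markers ranged from 94.6 to 116.6 in Alox5-/- LSC, 110.0 to 111.1 in LSC and 105.7 to 117.3 in HSC, so they did not separate the groups, and their part in the Fgr scores was not tested.

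**Figure D2:**
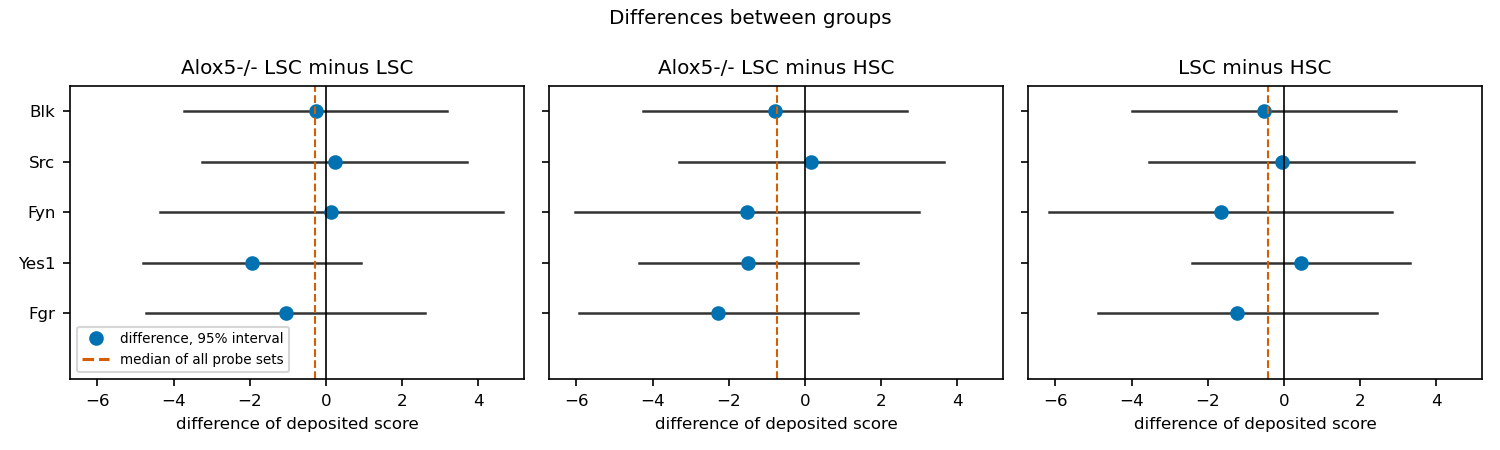
Difference of deposited score (horizontal axis, unit not stated) between groups for the 5 kinases (rows) in 3 comparisons; points are differences, bars 95% intervals from limma, and dashed lines the median difference of all probe sets. Every interval holds 0, and Yes1 in Alox5-/- LSC minus LSC (-1.94) and Fgr in Alox5-/- LSC minus HSC (-2.28) lie farthest from the dashed line in the first 2 panels.

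In Alox5-/- LSC against LSC, limma with Benjamini-Hochberg adjustment called 0 of the 5 kinases and 0% of 34499 probe sets. At an unadjusted p under 0.05 there were 0 of 5 kinases against 3.96% of all probe sets. In Alox5-/- LSC against HSC, 0 of 5 were called against 0% of all, and 0 of 5 had an unadjusted p under 0.05 against 6.44%. In LSC against HSC, 0 of 5 were called against 0%, and 0 of 5 had an unadjusted p under 0.05 against 4.94%. With 5 probe sets these shares cannot be told from the background.

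Groups without overlap were counted in both directions. As deposited, Alox5-/- LSC lay below LSC without overlap for 1 of 5 kinases (Yes1), against 20.7% of all probe sets, and below HSC for 2 of 5 (Yes1 and Fgr), against 27.6%. LSC lay below HSC without overlap for 0 of 5, against 23%. None of the 5 had the group named first higher without overlap, against 10.9%, 8.13% and 11.1% of all probe sets in Alox5-/- LSC against LSC, Alox5-/- LSC against HSC and LSC against HSC. After centring, Alox5-/- LSC lay below LSC for Yes1 (1 of 5, against 14.7%) and above LSC for Fyn (1 of 5, against 18.1%). Against HSC, they then lay below for Yes1 (1 of 5, against 15.1%) and above for 0 of 5 (against 19.5%). LSC then lay below HSC for 0 of 5 (against 16.3%) and above for Yes1 (1 of 5, against 17.8%). With 5 kinases, none of these counts stood apart from its background. The median difference of the kinases was -0.27 in Alox5-/- LSC minus LSC, -1.48 in Alox5-/- LSC minus HSC and -0.52 in LSC minus HSC. Over all probe sets these medians were -0.28, -0.73 and -0.43, so much of the negative direction was shared with the arrays as a whole. Any pair of these comparisons shares the arrays of a group, be it Alox5-/- LSC, LSC or HSC, so their differences are not independent. The low Yes1 scores against LSC and against HSC rest on the same Alox5-/- LSC arrays.

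For each of the 5 kinases, replicate 2 minus replicate 1 in HSC was above the median of this signed gap over all probe sets. In size alone, the median gap of all probe sets was 1.68, and Yes1 lay below it. HSC replicate 2 exceeded replicate 1 by 4.91 for Fyn, 3.18 for Src, 2.70 for Blk, 2.59 for Fgr and 1.21 for Yes1. Over all probe sets the median of this gap was 0.65, and the gap exceeded 0 for 61.3% of them. Fyn stood at percentile 92.6 of these gaps, the next 3 between 78.6 and 83.6, and Yes1 at 59.8. HSC replicate 2 was the highest array for 4 of the 5 kinases, against 30.9% of all probe sets, and Yes1 was highest on LSC replicate 2. After centring it was highest for 2 of 5, Fyn and Fgr, against 16.9%, while Blk and Src were then highest on Alox5-/- LSC replicate 2.

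**Figure D3:**
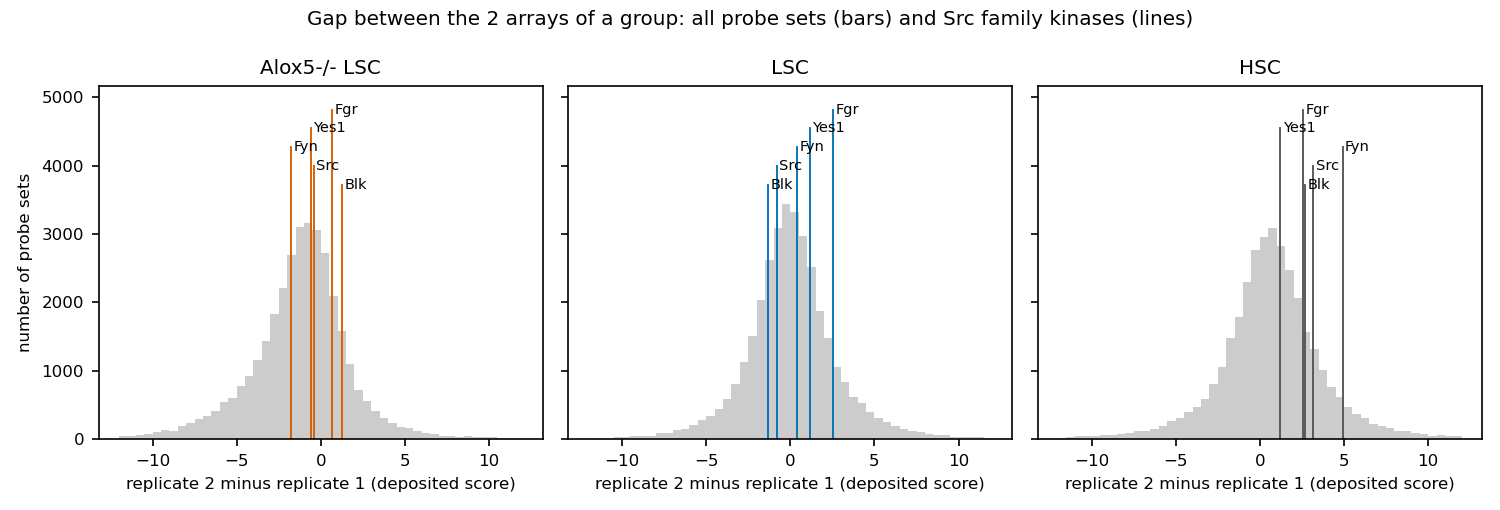
Number of probe sets (vertical axis, bars) by replicate 2 minus replicate 1 of the deposited score (horizontal axis, -12 to 12 shown) in each group; coloured lines mark the 5 kinases. In HSC all 5 lines lie to the right of 0, from 1.21 for Yes1 to 4.91 for Fyn, while in Alox5-/- LSC and LSC they lie on both sides.

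The shape of each kinase's profile over the 6 arrays was compared after centring arrays on their medians and probe sets on their means. The measure was the root mean square difference, in score units. Among 10 pairs of kinases Blk and Src were the most alike, at 0.65, and Fyn and Yes1 the least, at 1.51. Over 17510 named genes the profiles most like that of Blk were those of Sst (0.18), L3mbtl1 (0.24), Reep2 (0.25), Ect2l (0.25) and Rnf43 (0.26), with a median over all genes of 1.59. Blk itself varied by 0.99 about its mean. This search was run for Blk alone, so it does not show whether these profiles are closer than those found for other genes.

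Genes that act with the family were read from 5 lists holding 69 genes, of which 64 had probe sets, 65 in all. The rest were not analysed here. The kinases outside the list of members comprised Frk, Srms and Ptk6, the Tec family kinases and Syk and Zap70. Of 9 measured, Btk, which acts below the Src kinases in B cell receptor signalling, was the only gene with an unadjusted p under 0.05. It made the count 1 of 9 in each comparison with HSC, against 4.94% of all probe sets for LSC and 6.44% for Alox5-/- LSC. In Alox5-/- LSC against LSC the count was 0 of 9, against 3.96%. Btk scored 13.3 and 10.9 in Alox5-/- LSC, 10.8 and 12.9 in LSC, and 15.4 and 18.4 in HSC. Both leukaemic groups lay below HSC without overlap. LSC minus HSC was -5.05 ± 1.65 (SE; limma unadjusted p = 0.0227, adjusted p = 0.993), and Alox5-/- LSC minus HSC was -4.77 (unadjusted p = 0.0280, adjusted p = 0.769).

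Of 21 measured partners in immune receptor signalling, 1 had an unadjusted p under 0.05 in each comparison with HSC. Over all probe sets the shares were 4.94% for LSC and 6.44% for Alox5-/- LSC. In Alox5-/- LSC against LSC the count was 0 of 21, against 3.96%. The partner under 0.05 was Cd79a, the signalling chain of the B cell receptor that Src kinases phosphorylate. It scored 15.1 and 11.5 in Alox5-/- LSC, 16.9 and 13.9 in LSC, and 23.7 and 28.2 in HSC. The HSC arrays stood far above the other 4. LSC minus HSC was -10.60 ± 2.13 (SE; limma unadjusted p = 0.00262, adjusted p = 0.841) and Alox5-/- LSC minus HSC was -12.65 (unadjusted p = 0.00107, adjusted p = 0.769). Cd79b, its partner chain, differed by 1.60 in LSC minus HSC.

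**Figure D4:**
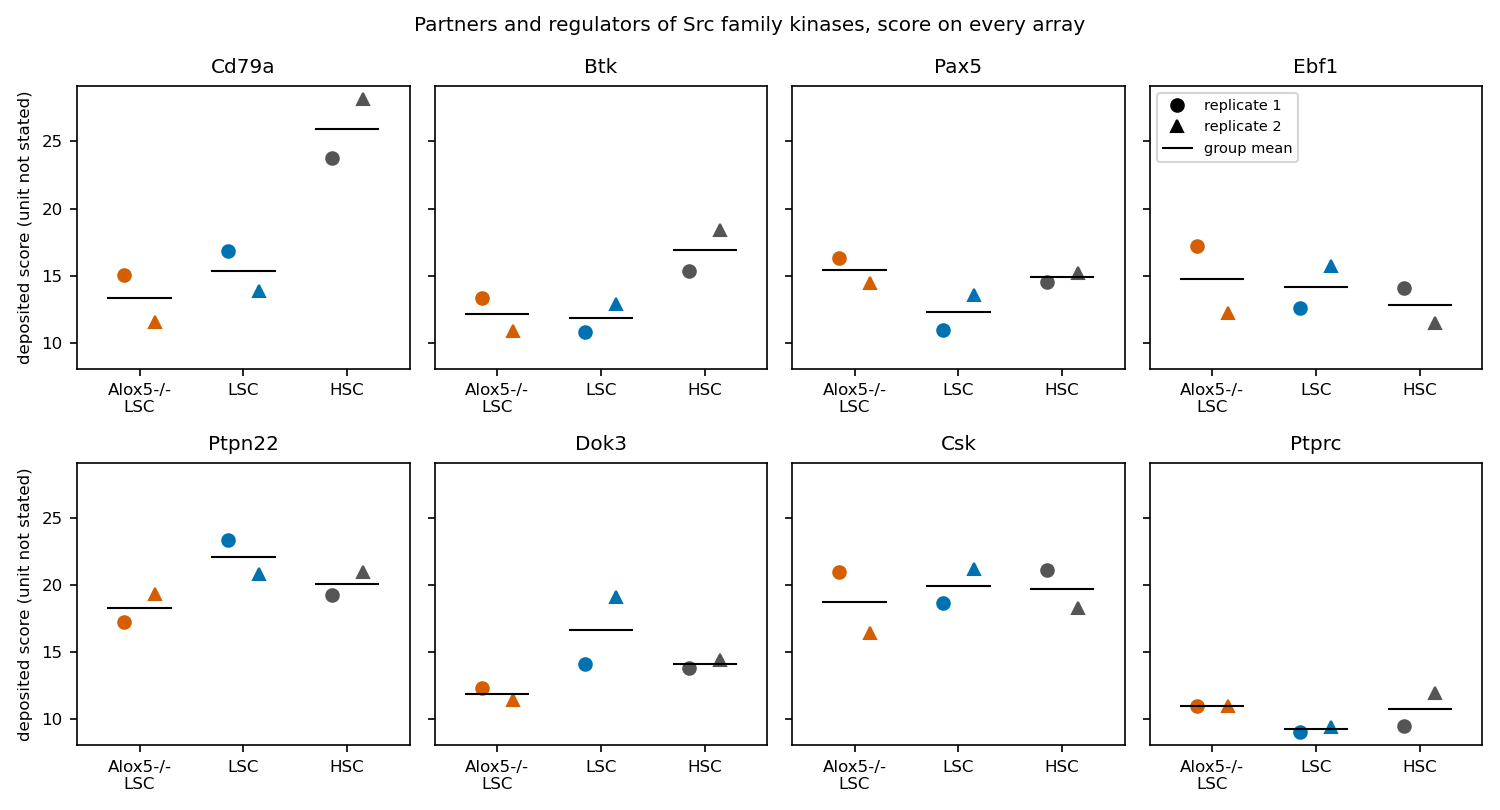
Deposited score (vertical axis, unit not stated) of 8 partners and regulators on the 6 arrays, by group; circles are replicate 1, triangles replicate 2 and lines group means. Cd79a and Btk are highest on both HSC arrays, Pax5 is lowest on both LSC arrays, and Ptpn22 and Dok3 have their group mean highest in LSC.

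Because Blk, Btk and Cd79a are all expressed in B lymphocytes, the whole list of B lineage markers was read beside them. Btk and Cd79a were singled out by their unadjusted p in these same data. Of 8 markers, 7 were measured. Their summed score was 92.7 to 98.5 in Alox5-/- LSC, 91.6 to 95.9 in LSC and 109.3 to 115.4 in HSC, and 0 of their values were at 0. Without Cd79a the sums were 81.2 to 83.4, 77.7 to 79.0 and 85.5 to 87.3 in the same order, and after centring the Alox5-/- LSC and HSC sums overlapped while LSC stayed lowest. This list without Cd79a was made after its values were seen. The 7 markers did not share a direction. In LSC minus HSC, Cd79b and Ebf1 stood at 1.60 and 1.34. Cd79a, Vpreb1, Pax5, Ms4a1 and Igll1 stood at -10.60, -4.35, -2.62, -2.36 and -1.63. The part of B lineage cells in the Blk, Btk and Cd79a scores was not tested, and in sorted bulk samples a difference in the number of cells of a type and one in RNA per cell cannot be told apart, whichever way the score runs.

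Of the 18 regulators of Src kinases, 2 had an unadjusted p under 0.05, both in Alox5-/- LSC against LSC and both lower in Alox5-/- LSC. Over all probe sets 3.96% had such a p in that comparison, and 2.73% had it with lower scores. In Alox5-/- LSC against HSC and in LSC against HSC it was 0 of 18, against 6.44% and 4.94%. The 2 genes are named because they passed this threshold. The phosphatase Ptpn22, which removes the activating phosphate from Src kinases in lymphocytes, scored 17.3 and 19.3 in Alox5-/- LSC, 23.4 and 20.8 in LSC, and 19.3 and 21.0 in HSC. Alox5-/- LSC minus LSC was -3.79 ± 1.51 (SE; limma unadjusted p = 0.0457, adjusted p = 1.00), and -2.50 with LSC replicate 1 left out. The adaptor Dok3, an inhibitor of B cell receptor signalling, scored 12.4 and 11.4 in Alox5-/- LSC, 14.1 and 19.2 in LSC, and 13.8 and 14.4 in HSC. Its difference of -4.72 ± 1.83 (SE; limma unadjusted p = 0.0418, adjusted p = 1.00) was -2.20 with LSC replicate 2 left out and -7.24 with LSC replicate 1 left out.

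The main switches of the family had no unadjusted p under 0.05 in any comparison. Csk scored 21.0 and 16.4 in Alox5-/- LSC, 18.6 and 21.2 in LSC, and 21.1 and 18.3 in HSC, so its replicates differed by more than its groups. Ptprc scored 11.0 and 11.0 in Alox5-/- LSC, 9.05 and 9.47 in LSC, and 9.54 and 11.97 in HSC. LSC was lowest for Ptprc without overlap with either other group, as were 5.37% of all probe sets. The higher LSC score, 9.47, lay only just under the lower HSC score, 9.54. Alox5-/- LSC minus LSC was 1.75 ± 1.27 (SE; limma unadjusted p = 0.218) and LSC minus HSC was -1.50 (unadjusted p = 0.284). The second was -0.28 without HSC replicate 2 and -2.72 without HSC replicate 1.

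Pax5, Ebf1 and Cdkn1b, the genes tied to Blk by the same laboratory, were chosen for that link and are not independent evidence of a direction. Pax5, the transcription factor of B cell commitment, scored 16.4 and 14.5 in Alox5-/- LSC, 11.0 and 13.6 in LSC, and 14.6 and 15.2 in HSC. LSC was lowest without overlap, as were 5.37% of all probe sets, with LSC minus HSC at -2.62 ± 1.41 (SE; limma unadjusted p = 0.114, adjusted p = 0.993) and Alox5-/- LSC minus LSC at 3.14 (unadjusted p = 0.0685, adjusted p = 1.00). Leaving out LSC replicate 1 brought these to -1.32 and 1.84, and leaving out LSC replicate 2 to -3.92 and 4.44. Ebf1, another B lineage factor, scored 17.2 and 12.2 in Alox5-/- LSC, 12.6 and 15.7 in LSC, and 14.1 and 11.5 in HSC, with the groups overlapping. The 2 probe sets of Cdkn1b disagreed. The first stood at 18.0 ± 0.62 in LSC and 16.6 ± 0.04 in HSC, and the second at 12.7 ± 0.71 in LSC and 13.9 ± 0.14 in HSC (SD, n = 2 each), so LSC minus HSC was 1.36 and -1.28. In Alox5-/- LSC they averaged 15.9 ± 0.71 and 12.3 ± 1.39 (SD, n = 2), and Alox5-/- LSC minus LSC was -2.10 (limma unadjusted p = 0.108) and -0.30, the second turning to 0.10 after centring.

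No member of the list of 13 adhesion substrates, such as paxillin (Pxn) and cortactin (Cttn), had an unadjusted p under 0.05 in any comparison. Over all 5 lists, 2 of 65 probe sets had such a p in each comparison, all with lower scores in the group named first, against background shares with lower scores of 2.73% in Alox5-/- LSC against LSC, 5.32% in Alox5-/- LSC against HSC and 3.45% in LSC against HSC. List medians were -0.12, -0.89 and -0.31 in these comparisons. The immune receptor partners stood at -1.13 in Alox5-/- LSC minus LSC, with 15 of 21 below 0 against 57.4% of all probe sets, at -1.34 in Alox5-/- LSC minus HSC, with 17 of 21 below 0 against 67.1%, and at -0.21 in LSC minus HSC, with 12 of 21 below 0 against 60.8%. Over all probe sets the medians were -0.28, -0.73 and -0.43, so the list lay lower than these in the first 2 comparisons and higher in the third. In Alox5-/- LSC minus LSC the other Src-related and Tec kinases had a median of 0.64, with 2 of 9 below 0, the adhesion substrates 0.30, with 5 of 13 below 0, and the regulators -0.25, with 11 of 18 below 0.

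**Figure D5:**
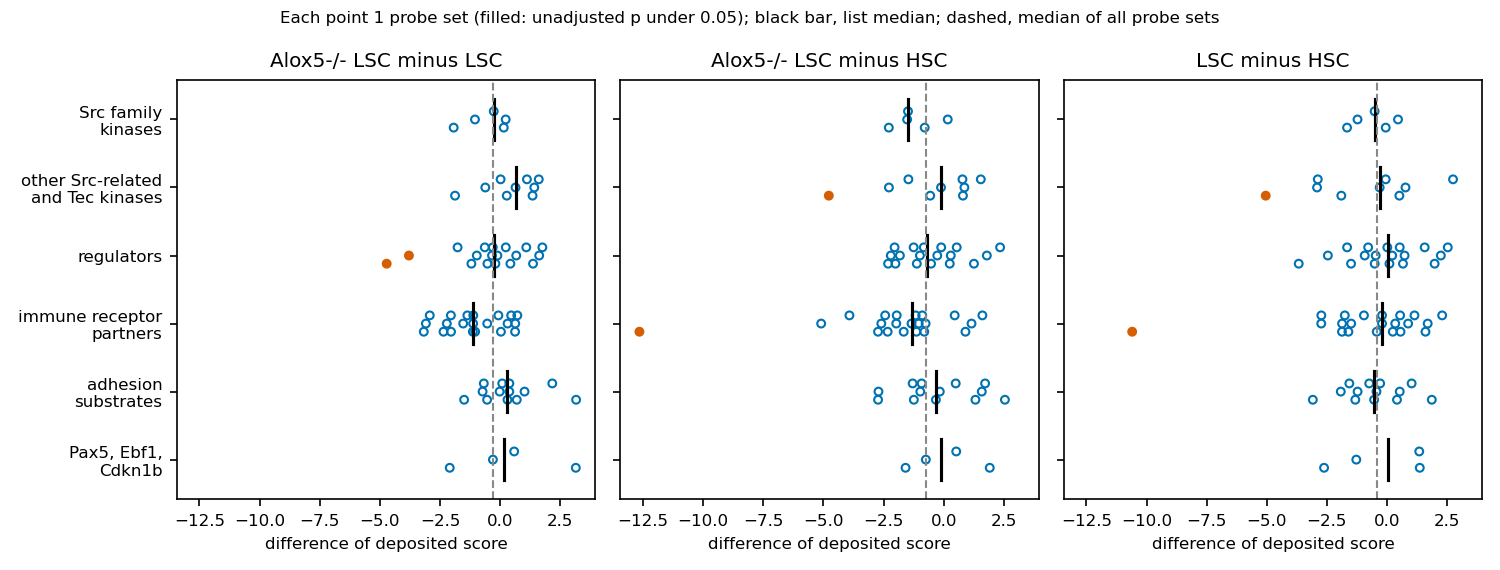
Difference of deposited score (horizontal axis, unit not stated) of each probe set of the Src family kinases and of 5 lists of genes that act with them (rows) in 3 comparisons; filled points have an unadjusted p under 0.05, black bars are list medians and dashed lines the median of all probe sets. The kinases lie among the other lists, and Cd79a at -10.60 in LSC minus HSC and -12.65 in Alox5-/- LSC minus HSC is the point farthest to the left.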

How the data were processed

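The deposited values are scores, 1 for each probe set on each of the Affymetrix whole-transcript arrays, which took 100 to 300 ng of total RNA per the labels' protocols. The submitters' processing notes name Affymetrix Expression Console 1.1 and RMA. The unit of the score as deposited by the authors is not stated, and scores above 16 cannot be log2 values of a 16-bit scan. Of 35557 rows, 1058 were empty on all arrays and 34499 were used. Symbols came from the platform annotation, which gave 1 symbol to 21789 rows, several to 1621 and none to 12147.

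The scores were fitted as deposited with limma 3.58.1 (R 4.3.3), with a mean per group over all 6 arrays, 3 residual degrees of freedom and an empirical Bayes prior following the mean. Each SE and interval thus draws on all 3 groups, including the one outside the comparison. Tests were two-sided with Benjamini-Hochberg adjustment over all 34499 probe sets and a threshold of 0.05. The plan assumed log2 values, and the same model was used on the scores. The fit was also run on simulated normal values, with shifts added to some probe sets in LSC and no differences between whole arrays. The deposited arrays differ in their medians, so that run checks the code and not how well the model suits these scores. The number of arrays limits the precision.

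Members and lists were chosen with earlier results of these data known. Genes named were the 5 kinases, Alox5, Csk, Ptprc, Pax5, Ebf1, Cdkn1b, list genes with an unadjusted p under 0.05 in a comparison, and the 5 profiles nearest to Blk. Actb, Eef2, Kit, Tpt1 and the measured B lineage markers were given as checks. Alternatives were 2 scalings, 1 probe set per gene, leaving out the lowest 25% by mean score, a prior without trend, the replicate number as a block and each array left out. Across probe sets, deviations of same-numbered arrays from their group means correlated at -0.05 to -0.02, so the scores showed no pairing by replicate number. These correlations cannot tell whether same-numbered samples were handled together.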

Additional observations from a re-analysis of the deposited data

How the results depend on the processing

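Limma called 0 probe sets in each comparison under every alternative, and 0 of the 5 kinases had an unadjusted p under 0.05 except when HSC replicate 1 was left out, where Fyn made the count 1 in LSC against HSC and 1 in Alox5-/- LSC against HSC. Of 177 alternative values of the kinases' differences 25 changed sign, 19 of them on leaving out an array. Many of the 177 could not change. The prior, the block, the choice of probe sets and an array outside the comparison left a difference as it was. Signs were thus less stable than 25 of 177 implies, and the cause was not tested. The score of Blk lay in the lowest 25%, so it has no value with those probe sets left out. All 6 sign changes under scaling were those of Blk and Src. Centring gave Blk 0.14 and quantile normalization 0.28 in Alox5-/- LSC minus LSC, 0.094 and 0.24 in Alox5-/- LSC minus HSC, and Src 0.42 and 0.46 in LSC minus HSC. The second Cdkn1b probe set turned to 0.10 and 0.11 in Alox5-/- LSC minus LSC, and the first to 0.14 and 0.15 in Alox5-/- LSC minus HSC.

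With arrays left out in turn, Alox5-/- LSC minus LSC ran from -0.93 to 0.39 for Blk, -0.18 to 0.63 for Src, -0.73 to 1.02 for Fyn, -2.32 to 0.22 for Fgr, -0.24 to 0.76 for Alox5, -3.46 to 1.07 for Csk, -1.94 to 3.10 for Ebf1 and -1.29 to 0.68 for the second Cdkn1b probe set. Alox5-/- LSC minus HSC ran from -2.14 to 0.56 for Blk, -1.42 to 1.76 for Src, -3.97 to 0.94 for Fyn, -5.92 to 1.36 for Alox5, -3.25 to 1.28 for Csk, -0.96 to 1.47 for Ptprc, -0.42 to 1.46 for Pax5 and -0.60 to 4.43 for Ebf1. LSC minus HSC ran from -1.87 to 0.83 for Blk, -1.65 to 1.53 for Src, -4.12 to 0.79 for Fyn, -0.15 to 1.06 for Yes1, -2.52 to 0.064 for Fgr, -6.18 to 1.096 for Alox5, -1.19 to 1.61 for Csk and -0.24 to 2.91 for Ebf1. Where 1 array was left in a group, it was assumed to vary like the other groups. Yes1 kept its sign in both comparisons with Alox5-/- LSC under every alternative, and so did Fgr in Alox5-/- LSC minus HSC. In these comparisons the groups did not overlap as deposited, so leaving out an array could not reverse the sign. Only the 2 scalings could have done so, and the kept signs thus add little to the lack of overlap.

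Probe sets with an unadjusted p under 0.05 numbered 1365 in Alox5-/- LSC against LSC (1211 to 2144 with an array left out, most when Alox5-/- LSC replicate 2 was), 2223 in Alox5-/- LSC against HSC (1754 to 3184) and 1704 in LSC against HSC (1345 to 2630, most when HSC replicate 1 was left out). With 1 probe set per gene, where 19934 were tested, they numbered 678, 1392 and 939. With the replicate block they numbered 1233, 1923 and 1517, with 0 called, and the block changed no other call. Lower scores made up 69.1%, 82.5% and 69.9% of them in these comparisons as deposited, 48.6%, 49.1% and 53.1% after centring and 52.3%, 52.2% and 52.9% after quantile normalization.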

Other observations

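Marker lists of other cells than the sorted Lin-c-Kit+Sca-1+ population were summed on each array. The 6 T lineage markers, genes of the cells in which Fyn is best known, summed to 87.7 to 88.7 in Alox5-/- LSC, 92.5 to 94.4 in LSC and 93.3 to 94.5 in HSC. Alox5-/- LSC lay lowest as deposited, and the groups overlapped once each array was centred on its median. The 3 measured erythroid markers summed to 42.3 to 47.1 in Alox5-/- LSC, 45.9 to 50.04 in LSC and 47.2 to 48.9 in HSC, with the groups overlapping. The 3 measured megakaryocyte markers summed to 42.5 to 49.0 in Alox5-/- LSC, 48.8 to 50.2 in LSC and 42.5 to 46.4 in HSC, with LSC above HSC. Kit, the receptor used in the sort, scored 11.5 and 10.5 in Alox5-/- LSC, 11.1 and 14.5 in LSC, and 12.6 and 15.4 in HSC. Of the marker values on the lists read, 0 were at 0. How these markers bear on the kinase scores was not tested.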
